A study of Mus musculus with 4 samples.

Results

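L1Md_T is a family of mouse LINE1 (L1) retrotransposons, and its copies were studied here in RNA-seq libraries of embryonic stem cells (ESCs) that lack Terc, the RNA template of telomerase. The copies were chosen by name alone, as every entry of the table of transposable element (TE) counts whose repeat name is L1Md_T. They number 23688 of the 3658072 TE copies in the table. All of them entered the sums, and the 3768 with at least 5 counts over the 4 libraries (of 176114 such TE copies) entered the values for single copies. Another 5829 L1Md_T copies had 1 to 4 counts, and the remaining copies had none.

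Poly(A) RNA of WT ESCs (line N12) and of G3 Terc-/- ESCs (line F35) was sequenced in 2 libraries each. The mice had a C57BL/6 background, G3 denotes the third generation without Terc (the labels write G3 before the WT line too), and the cells of both genotypes were grown on feeder cells. Each genotype was represented by 1 line, so genotype and line cannot be told apart, and nothing in the labels says that the 2 libraries of a genotype came from separate derivations. A library held from 18047995 to 22520017 gene counts and from 1805047 to 2104586 TE counts. Terc gave 7 and 2 counts in WT, against 0 in either G3 Terc-/- library. The 10 pluripotency markers had summed levels of 5910 and 5960 CPM (counts per 1000000 counts, here of the gene table) in WT and of 7250 and 7510 in G3 Terc-/-. They did not move as 1, with 7 higher and 3 lower at an adjusted p-value under 0.05 by edgeR. Their log2 fold changes ran from -0.79 (Dppa5a) to 1.13 (Nanog). The 12 markers of feeder fibroblasts had summed levels of 213 and 139 CPM in WT and of 268 and 185 in G3 Terc-/-, so the genotypes overlapped in feeder RNA. The libraries numbered 1 were the higher of each genotype, and G3 Terc-/- was above WT within each number. Of 11 feeder markers tested, 5 were higher in G3 Terc-/- at an adjusted p-value under 0.05 and 0 were lower. Over all genes tested the shares were 21.7% higher and 21.8% lower by edgeR. The part of the feeder markers in the values of L1Md_T was not tested.

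A full-length L1 carries its own promoter and encodes an RNA-binding protein and a second protein with endonuclease and reverse transcriptase activity, with which it copies its RNA back into the genome. Most copies are truncated at the 5′ end and cannot do this. L1Md_T belongs with L1Md_A and L1Md_Gf to the young mouse families that still hold active members, whereas the L1Md_F, Lx and L1M families are older. In ESCs such elements are held down by DNA methylation and by methylation of lysine 9 of histone H3 (H3K9), and part of them are transcribed all the same. The table identifies a copy by its repeat name and a running number and gives no position. Copies are therefore called by that number, and their place in the genome, their length and their sequence were not analysed here. Young L1 copies are nearly identical, so that reads can be shared between copies, and the sum over the family is the firmer value. Single copies should be read as the places to which counts were assigned. The counts, summed or single, do not tell RNA that starts in a copy from RNA of a gene that runs through it.

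RNA counted on L1Md_T copies was more than doubled in G3 Terc-/- ESCs. The summed counts were 12973 and 13925 in WT against 31418 and 26057 in G3 Terc-/-. As CPM of the TE counts these were 6301 and 6617 in WT, with a mean of 6459 ± 223 (SD, n = 2), and 15211 and 14436 in G3 Terc-/-, with a mean of 14823 ± 548 (SD, n = 2). Both G3 Terc-/- libraries lay far above both WT libraries, and the 2 libraries of a genotype differed little. In bulk RNA, more cells with L1Md_T RNA and more of it per cell cannot be told apart. The log2 fold change was 1.15 with an SE of 0.03, a 2.21-fold increase, with an adjusted p-value of 1.03e-09 by edgeR's quasi-likelihood test over 917 repeat names. Repeat names were called higher at 1.5-fold with p under 0.05, which 5.13% of all repeat names tested met. Set against the gene counts, L1Md_T gave 588 and 618 CPM in WT, and 1435 and 1444 CPM in G3 Terc-/-. With 2 libraries against 2, an exact two-sided permutation test of a single value cannot go below 0.333.

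L1Md_T had the most counts of any L1 repeat name. Its share of the counts on all names that begin with L1 or Lx was 6.72% and 7.08% in WT, against 13.70% and 12.95% in G3 Terc-/-. This share depends on how many copies a name has and how long they are, and is not a level per copy. By log2 fold change L1Md_T stood at rank 14 of the 917 repeat names.

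**Figure D1:**
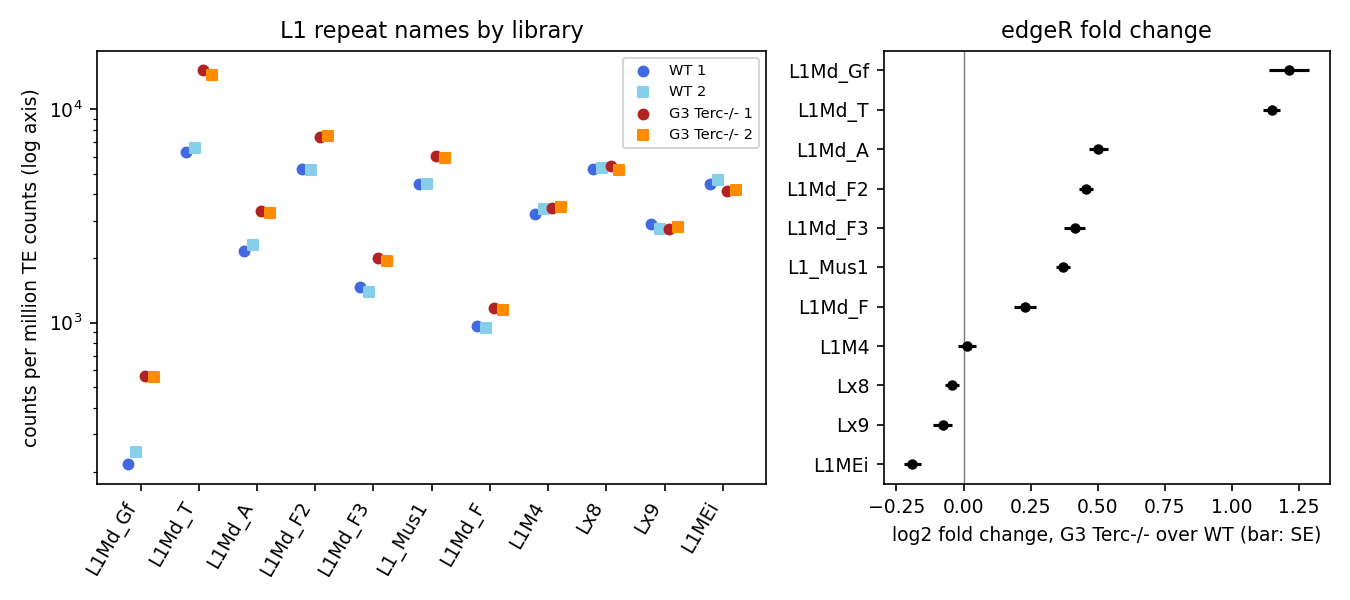
L1 repeat names in the 4 libraries. Left, CPM of the TE counts for each name in each library on a log axis; right, log2 fold change of G3 Terc-/- over WT with its SE from edgeR. L1Md_T (1.15) and L1Md_Gf (1.21) lie apart from the other L1Md names, which lie between 0.23 and 0.50.

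The change of L1Md_T was larger than that of nearly every other repeat name. In a test of the difference itself, in which the L1Md_T count of each library served as the reference, 858 of 916 other repeat names had a smaller change at an adjusted p-value under 0.05 (93.7%), 4 had a larger one (0.437%) and 54 were not distinguished from L1Md_T. The 4 with a larger change were IAPEy-int, IAPEY5_I-int, MERVL-int and MT2_Mm, which are endogenous retroviral sequences, with log2 fold changes of 4.42, 3.19, 2.39 and 1.38. No L1 name had a larger change by this test. Of the 121 other L1 names, 116 changed less and 5 were not distinguished.

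The L1Md families differed in size of change. L1Md_A, the other large young family, had 2177 and 2318 CPM in WT and 3319 and 3274 CPM in G3 Terc-/-, a log2 fold change of 0.50 with an SE of 0.04. Relative to L1Md_T it was lower by 0.65 on the log2 scale (SE 0.07, adjusted p-value 1.02e-13 by edgeR). The older L1Md_F, L1Md_F2 and L1Md_F3 had log2 fold changes of 0.23, 0.46 and 0.41, and each changed less than L1Md_T, with adjusted p-values of at most 1.4e-15 by edgeR. L1Md_A and these F families therefore rose as well, at adjusted p-values under 0.05, but by less than a fold change of 1.5. L1Md_Gf alone of the L1Md names was not distinguished from L1Md_T. It had 217 and 247 CPM in WT and 561 and 553 CPM in G3 Terc-/-, and its log2 fold change of 1.21 was 0.07 above that of L1Md_T with an SE of 0.09 (adjusted p-value 0.47 by edgeR). The other L1 names that were not distinguished were L1MA6 (log2 fold change 1.28), L1MDb (1.01), L1P5 (0.72) and L1MEj (0.44). Relative to L1Md_T these had values of 0.13 (SE 0.08), -0.12 (SE 0.12), -0.43 (SE 0.33) and -0.71 (SE 0.36). L1P5 and L1MEj were thus measured too loosely to be called alike to L1Md_T.

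The older L1 names with the most counts all changed less. L1_Mus1 had a log2 fold change of 0.37, and Lx8, L1M4 and Lx9 had values of -0.04, 0.01 and -0.08 that did not pass the test. L1MEi fell by 0.19 on the log2 scale (SE 0.03, adjusted p-value 0.0017 by edgeR). Only 7 L1MEi copies had at least 5 counts, against 576 to 1224 for the others, so its value may rest on few copies. Relative to L1Md_T these 5 names were lower by 0.78 to 1.34 on the log2 scale.

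The increase was spread over many copies. Of the 3768 L1Md_T copies tested, 1034 (27.4%) rose at least 2-fold with p under 0.05 in G3 Terc-/- ESCs, and 15 (0.398%) fell by that rule. Among all TE copies tested the shares were 4.7% higher and 3.87% lower. In the other L1Md families the share of higher copies ran from 11.3% (L1Md_F2) to 22.8% (L1Md_F). It was 20.6% for L1Md_Gf and 13.2% for L1Md_A. These shares also depend on the depth at which copies were measured, and they do not rank the families by size of change. L1Md_F, with a summed log2 fold change of 0.23, had a larger share than L1Md_Gf, with 1.21. The share of lower copies in these families ran from 0% (L1Md_Gf) to 2.99% (L1Md_A). With an adjusted p-value under 0.05 in place of the unadjusted one, 122 L1Md_T copies (3.24%) were higher and 2 (0.0531%) lower, against 0.634% and 0.366% of all TE copies. Both G3 Terc-/- libraries lay above both WT libraries in CPM for 2384 L1Md_T copies (63.3%), against 20.9% of all TE copies tested. The number of higher copies fell to 391 with DESeq2, and to 293 and 389 without the first or the second G3 Terc-/- library.

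The values of single copies were spread around the family value, and this spread includes the error of low counts. Of the 3768 copies tested, 1664 had only 5 to 9 counts. Among the 900 copies with at least 20 counts, log2 ratios were taken within libraries numbered 1 and within libraries numbered 2. These had a Pearson r of 0.316 over copies. The share of the spread that comes from count error was not tested. The log2 fold changes of the tested copies had a median of 1.40, and 50% of them lay between 0.65 and 2.17, against a median of 0.02 over all TE copies tested. The median was 1.26 when copies without counts in 1 genotype were set to the value that 3 counts over its 2 libraries give. Of the tested copies, 324 had no counts in WT and had passed the minimum of 5 counts through the G3 Terc-/- libraries alone, and 16 had passed through the WT libraries alone. The copies below that minimum moved as well. Summed, the 5829 copies with 1 to 4 counts gave 1588 and 1642 in WT against 4156 and 3533 in G3 Terc-/-, a log2 fold change of 1.30 in a fit in which these copies stood for the family.

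**Figure D2:**
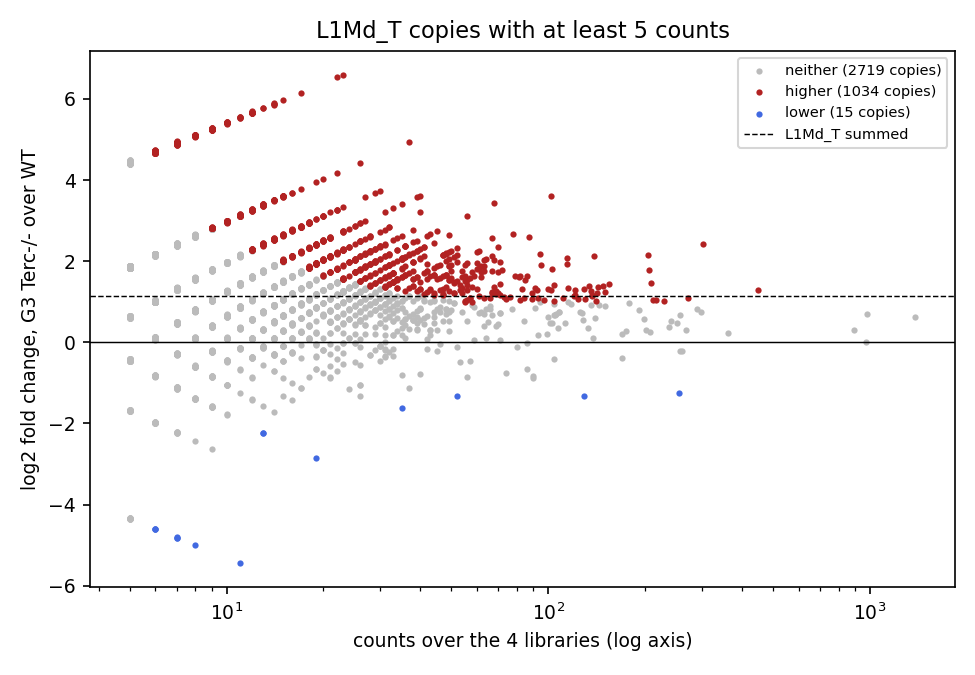
Log2 fold change of G3 Terc-/- over WT (edgeR) against the counts over the 4 libraries, on a log axis, for the 3768 L1Md_T copies tested. Red, 1034 copies higher and blue, 15 copies lower, at 2-fold with p under 0.05; the dashed line is the summed value of 1.15. Of the 10 copies with the most counts 8 lie below the dashed line, and the diagonal rows at the left are copies with the same few counts, among them those without counts in 1 genotype.

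Copies with the most counts changed least. When L1Md_T copies were grouped by their counts over the 4 libraries, the log2 ratio of the summed counts was between 1.28 and 1.35 in each group from 1 to 4 counts up to 20 to 49 counts. It was 1.08 for the 131 copies with 50 to 99 counts and 0.66 for the 83 copies with 100 or more. In all 6 groups both G3 Terc-/- libraries lay above both WT libraries. The ratio of the counts on copies with 5 to 9 counts to those on copies with 100 or more was 0.472 and 0.474 in WT against 0.771 and 0.714 in G3 Terc-/-, so the genotypes did not overlap (exact two-sided permutation p = 0.333, the smallest possible). All TE copies grouped in the same way had log2 ratios between -0.08 and 0.05. The share of L1Md_T copies that were higher rose with the depth at which a copy was measured, from 13.1% at 5 to 9 counts to 69.5% at 50 to 99 counts, and was 43.4% at 100 or more. The corresponding shares of all TE copies were 3.13%, 7.42% and 4.12%.

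**Figure D3:**
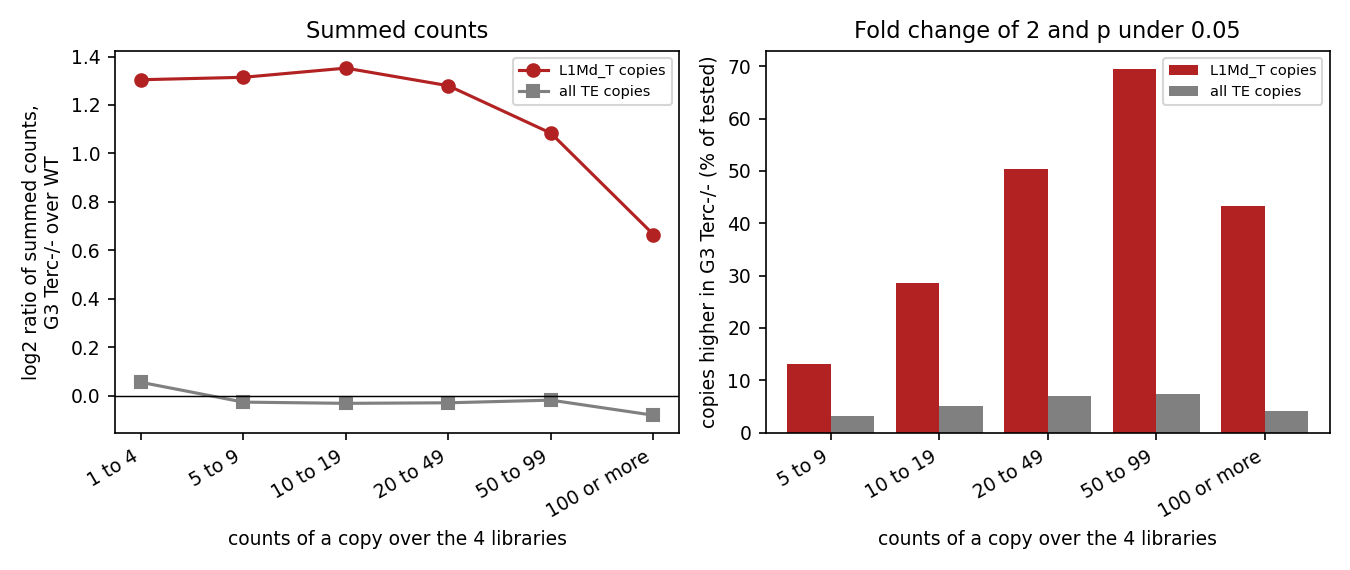
L1Md_T copies (red) and all TE copies (grey) grouped by counts over the 4 libraries. Left, log2 ratio of summed counts, G3 Terc-/- over WT, in which L1Md_T falls from 1.35 at 10 to 19 counts to 0.66 at 100 or more; right, percentage of copies higher at 2-fold with p under 0.05, which for L1Md_T is 69.5% at 50 to 99 counts.

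Counts were also spread over more copies in G3 Terc-/- ESCs. L1Md_T counts fell on 4162 and 4256 copies in WT, against 6727 and 6265 copies in G3 Terc-/-. At a common depth of 1805047 TE counts the expected numbers were 3889 and 3941 in WT and 6384 and 6265 in G3 Terc-/-. These numbers grow with the L1Md_T count of a library. At a common 12973 L1Md_T counts the numbers were 4162 and 4109 in WT and 4571 and 4575 in G3 Terc-/-, still without overlap. The 100 copies with the most counts held 27.6% and 27.4% of the WT counts on L1Md_T, against 19.4% and 20.3% in G3 Terc-/-.

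The running numbers gave a further division of the family that used no counts. Among 24 windows of up to 1000 consecutive numbers, the log2 ratio of the summed counts was between 0.77 and 1.41, and both G3 Terc-/- libraries lay above both WT libraries in all 24. The sources used here do not say whether the numbers follow the order of the genome. The log2 fold changes of tested copies with consecutive numbers had a Pearson r of 0.219 over 847 pairs of copies, which are measured in the same libraries and are not independent.

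The 10 copies with the most counts differed in their change. Copy 3246 had counts of 291 and 279 in WT against 455 and 361 in G3 Terc-/-, which was 1.64% of all L1Md_T counts, and a log2 fold change of 0.62 (SE 0.12, adjusted p-value 3.1e-04 by edgeR). Copy 17331 had counts of 183 and 206 in WT against 293 and 295 in G3 Terc-/- (log2 fold change 0.70, SE 0.13). Both were higher in G3 Terc-/- without overlap, by less than a fold change of 2. Copy 18637 had counts of 253 and 251 in WT against 258 and 213 in G3 Terc-/-, with a log2 fold change of 0.00 (SE 0.13). Copy 22062 had counts of 86 and 86 in WT against 95 and 94 in G3 Terc-/-, with a log2 fold change of 0.24 (SE 0.18, adjusted p-value 0.76 by edgeR). Copy 21870 had counts of 195 and 222 in WT against 271 and 207 in G3 Terc-/-, with a log2 fold change of 0.30 that did not pass after adjustment (adjusted p-value 0.42 by edgeR). In CPM of the TE counts the genotypes overlapped for 18637 and did not for 21870, which had 94.7 and 105.5 CPM in WT against 131.2 and 114.7 CPM in G3 Terc-/-.

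These differences from the family were tested with the L1Md_T total of each library as the reference, a test added after the values had been seen. By it 54 L1Md_T copies (1.43% of 3768) changed less than the total and 25 (0.663%) changed more at an adjusted p-value under 0.05, where the same test found 16.1% and 0.236% of all TE copies to change less and more. Of the 83 copies with 100 or more counts, 21 changed less and 4 more, and of the 1664 copies with 5 to 9 counts, 5 changed less and 0 more. Copies with few counts had large SEs, so these numbers depend on depth and do not show which copies depart more often. Copies 3246, 17331, 18637, 21870 and 22062 all changed less, with 18637 lower than the total by 1.19 on the log2 scale (adjusted p-value 2.8e-16 by edgeR). The other copies among the 10 were 19501, 3247, 3237 and 17332, which were not distinguished from the total, and 8400, which changed more. Without the first WT or the first G3 Terc-/- library, 30 and 27 copies changed less, and the number that changed more was between 8 and 11 without any 1 library.

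Copy 8400 had the smallest p-value among the higher copies. It had counts of 28 and 22 in WT against 154 and 98 in G3 Terc-/-, a log2 fold change of 2.42 (SE 0.23, adjusted p-value 1.8e-12 by edgeR), and relative to the family total it was higher by 1.22. Copy 8731 had counts of 4 and 4 in WT against 58 and 36 in G3 Terc-/- (log2 fold change 3.61, SE 0.44), and relative to the total it was higher by 2.43. Copy 6212 had counts of 5 and 1 in WT against 24 and 38 in G3 Terc-/- (log2 fold change 3.43, SE 0.54). In each of these the lowest G3 Terc-/- count was more than 3 times the highest WT count. The other 7 of the 10 copies with the smallest p-values were 8836, 19501, 18592, 16677, 19663, 10672 and 2780, with log2 fold changes between 1.28 and 2.68. Of these 7, copies 19501, 18592 and 2780 were not distinguished from the family total. Without the first G3 Terc-/- library copy 16677 no longer passed, and without the second copy 6212 no longer passed.

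Few copies went the other way. Copy 22190 had counts of 94 and 89 in WT against 39 and 33 in G3 Terc-/-, a log2 fold change of -1.24 (SE 0.22, adjusted p-value 1.6e-04 by edgeR). Copy 21947 had counts of 52 and 42 in WT against 21 and 14 in G3 Terc-/-, a log2 fold change of -1.32 (SE 0.32, adjusted p-value 0.012 by edgeR). These 2 were the lower copies that passed after adjustment, and their counts did not overlap between the genotypes. The next by p-value were 20647 with 2 and 9 counts in WT against 0 and 0 in G3 Terc-/-, 13431 with 14 and 3 against 1 and 1, and 389 with 16 and 11 against 5 and 3. These 3 had adjusted p-values between 0.14 and 0.30 by edgeR and lost their calls in 3 of the 4 fits that leave out a library.

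Some copies had counts in 1 genotype alone, and the number of these depends on how many counts the family has in each genotype. Counts in G3 Terc-/- and none in WT were found for 3636 copies (37.9% of the L1Md_T copies with counts), of which 1004 had counts in both G3 Terc-/- libraries, and these 3636 copies held 8.98% of all L1Md_T counts. Counts in WT and none in G3 Terc-/- were found for 1106 copies (11.5%), of which 92 had counts in both WT libraries, and they held 1.78%. Over all TE copies with counts the shares were 27.4% and 26.6%. No test was made of these numbers at a common L1Md_T count. Copies with counts in all 4 libraries numbered 2068 and held 70.2%. Most of the L1Md_T counts thus lay on copies that were also measured in WT.

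Copy 10414 had no counts in WT, against 14 and 9 in G3 Terc-/-, which was 7.96-fold higher against a floor of 3 counts over the WT libraries. The floor allows for the error of a count of 0 alone, and these copies were named for having the most counts. For 17326, 11512, 9081 and 13926 the G3 Terc-/- counts were 9 and 13, 13 and 4, 11 and 4, and 9 and 5. Their folds against that floor lay between 4.84 and 7.61. In the opposite direction, besides 20647, copies 21189, 11545, 17069 and 5872 had 7 or 8 counts in WT and 0 in G3 Terc-/-. Against the same floor they were 2.25-fold to 2.57-fold lower. None of them passed after adjustment (adjusted p-values between 0.31 and 0.43 by edgeR), and the counts of 5872 came from the first WT library alone. These counts are too few for a finer statement on a single copy.

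**Figure D4:**
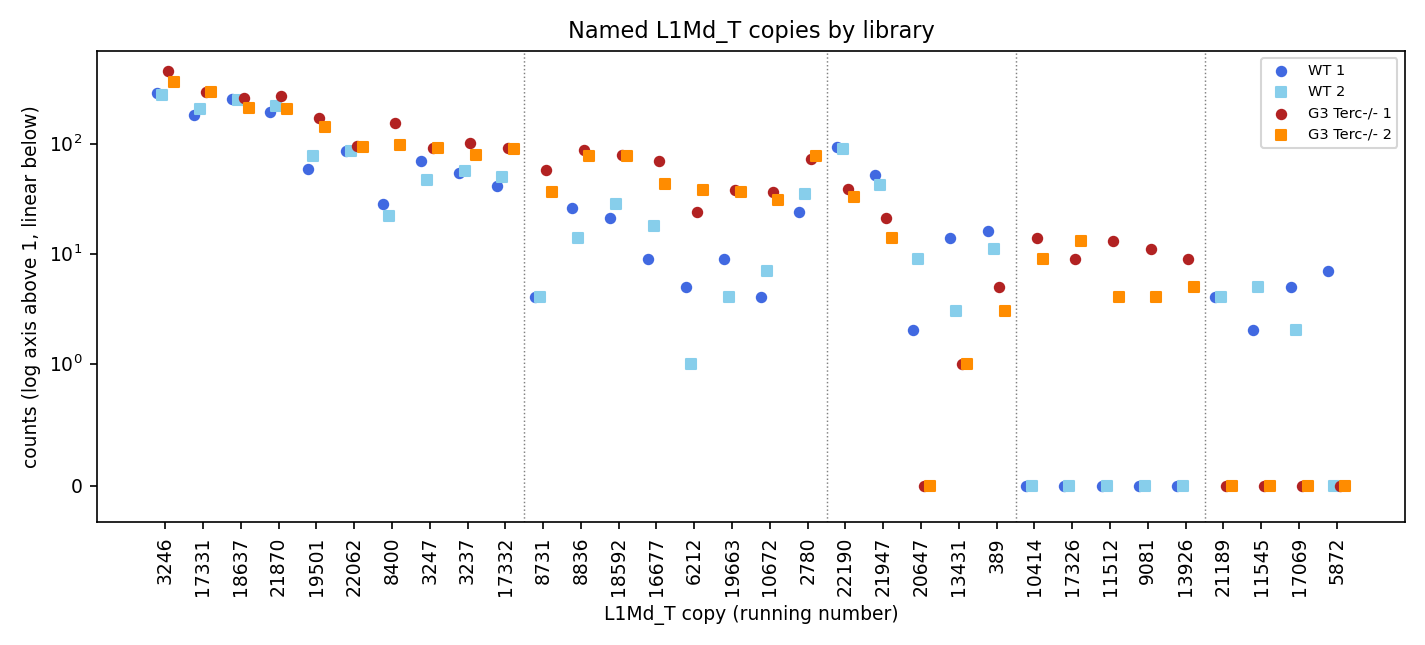
Counts of the named L1Md_T copies in the 4 libraries, on an axis that is logarithmic above 1 and linear below. Dotted lines part, from left to right, the 10 copies with the most counts, further higher copies, lower copies, copies without counts in WT and copies without counts in G3 Terc-/-; copy 18637 lies between 213 and 258 in all 4 libraries and copy 22190 is lower in G3 Terc-/-.

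Genes of pathways that silence, restrict or transcribe L1 elements were listed from general knowledge as 5 groups of 77 genes, of which 74 were tested. Not every gene listed is known to act on L1 itself. At an adjusted p-value under 0.05, 17 of the 74 rose and 25 fell, where 21.7% rose and 21.8% fell over all 14896 genes tested. The share that rose was near that of all genes, and the share that fell was above it. Whether the share that fell departs from the background was not tested. Their median log2 fold change was -0.03, against 0.01 over all genes. At 2-fold with p under 0.05, 1 rose (Zc3hav1) and 3 fell (Dnmt3b, Cbx3 and Piwil4), where 4.73% of all genes tested rose and 3.13% fell. Neither number at 2-fold stands out from the background. Whether any of these genes had a part in the change of L1Md_T was not tested.

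Among the DNA methylation genes, 3 were higher, 5 were lower and 4 did not pass. Dnmt3b, a de novo DNA methyltransferase, had counts of 11230 and 11596 in WT against 5129 and 4405 in G3 Terc-/-, a log2 fold change of -1.13 (SE 0.05). Dnmt3a, the other de novo enzyme, had counts of 9459 and 9233 in WT against 6725 and 5397 in G3 Terc-/- (log2 fold change -0.50, SE 0.05). Zfp57, a zinc finger protein that keeps methylation at imprinted regions, rose by 0.44 (SE 0.05) on the log2 scale. Tet2, which oxidises methylated cytosine, rose by 0.46 and Dnmt3l, a cofactor of the de novo enzymes, by 0.31, while Tdg and Tet1 fell by 0.35 and 0.19. Dnmt1, which copies methylation to the new strand, had a log2 fold change of -0.07 (adjusted p-value 0.23 by edgeR).

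The group of H3K9 methylation and heterochromatin had 1 higher gene, 9 lower genes and 9 that did not pass. Cbx3, which encodes the heterochromatin protein HP1 gamma, had counts of 3400 and 3708 in WT against 1427 and 1318 in G3 Terc-/- (log2 fold change -1.24, SE 0.06). Smarcad1, a chromatin remodeller, fell by 0.96 (SE 0.06), and Atrx, a remodeller that deposits histone H3.3 in heterochromatin, fell by 0.72 (SE 0.05). Cbx1, which encodes HP1 beta, fell by 0.59, and the H3K9 methyltransferase genes Ehmt1 and Ehmt2 fell by 0.38 and 0.25. The methyltransferase genes Suv39h1 and Suv39h2 did not pass (log2 fold changes -0.07 and -0.15). The H3K9 demethylase gene Kdm4c fell by 0.56, and the remaining lower genes, Chaf1b and Sin3a, fell by 0.34 and 0.20. The 1 higher gene was Rif1 (log2 fold change 0.24). Cbx3 and Smarcad1 both lie on chromosome 6, in GRCm38 from 51470154 to 51483704 and from 65042591 to 65116061. The study reports that part of this chromosome was deleted in Terc-/- ESCs of this generation. Whether the deletion spans these or other genes named here, and its part in their values, were not tested. Setdb1, the H3K9 methyltransferase that works with Trim28, is counted in the next group.

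In the group of Trim28, Setdb1 and the HUSH complex, 4 genes were higher, 5 were lower and 6 did not pass. Zfp819, a KRAB zinc finger gene, rose by 0.81 (SE 0.07), and Trim28, the corepressor that KRAB zinc fingers recruit, rose by 0.41 (SE 0.05). Trim33, a relative of Trim28, fell by 0.49 (SE 0.06). The HUSH genes Tasor and Mphosph8 fell by 0.29 and 0.21, and Morc3 and Resf1 fell by 0.16 and 0.15. The other 2 higher genes were Zfp932 and Zfp42, with a log2 fold change of 0.27 for both. Setdb1 itself had counts of 3990 and 4200 in WT against 4007 and 3370 in G3 Terc-/-, with a log2 fold change of -0.03 (SE 0.05).

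Of the 18 tested genes listed for restriction of L1 RNA, protein or cDNA, 5 were higher, 4 were lower and 9 did not pass. Zc3hav1, which encodes the antiviral zinc finger protein ZAP, had counts of 648 and 664 in WT against 1799 and 1458 in G3 Terc-/- (log2 fold change 1.43, SE 0.07), and it too lies on chromosome 6 (38305286 to 38355352). Tex19.1, which acts on L1 in germ cells and ESCs, fell by 0.59 (SE 0.06). Piwil2, a member of the piRNA pathway, rose by 0.47 (SE 0.07). Piwil4 of the same pathway, which the rule for naming genes did not pick and which was added because it passed the fold change of 2, had counts of 51 and 55 in WT against 19 and 20 in G3 Terc-/-. The remaining genes past the test moved by less than 0.30 on the log2 scale. They were Fam120a, Apobec3 and Mov10, which were higher, and Zcchc3 and Samhd1, which were lower.

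Of the 10 genes listed as factors that bind L1 promoters or as derived from L1, 4 were higher, 2 were lower and 4 did not pass. Dppa2 rose by 0.69 (SE 0.06), and the pluripotency factors Sox2 and Klf4 rose by 0.44 and 0.38 (SE 0.05 for both). Runx3 had 33 and 46 counts in WT against 59 and 57 in G3 Terc-/-. L1td1, a gene derived from an L1 open reading frame, and Dppa4, the partner of Dppa2, fell by 0.17 and 0.13. Dppa2 is an activator of two-cell genes. All 8 tested markers of two-cell-like cells, of 9 listed, rose at an adjusted p-value under 0.05, and their summed level was 3.85 and 4.84 CPM in WT and 48.5 and 50.1 CPM in G3 Terc-/-. These markers thus moved with L1Md_T by genotype, and their part in its change was not tested.

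**Figure D5:**
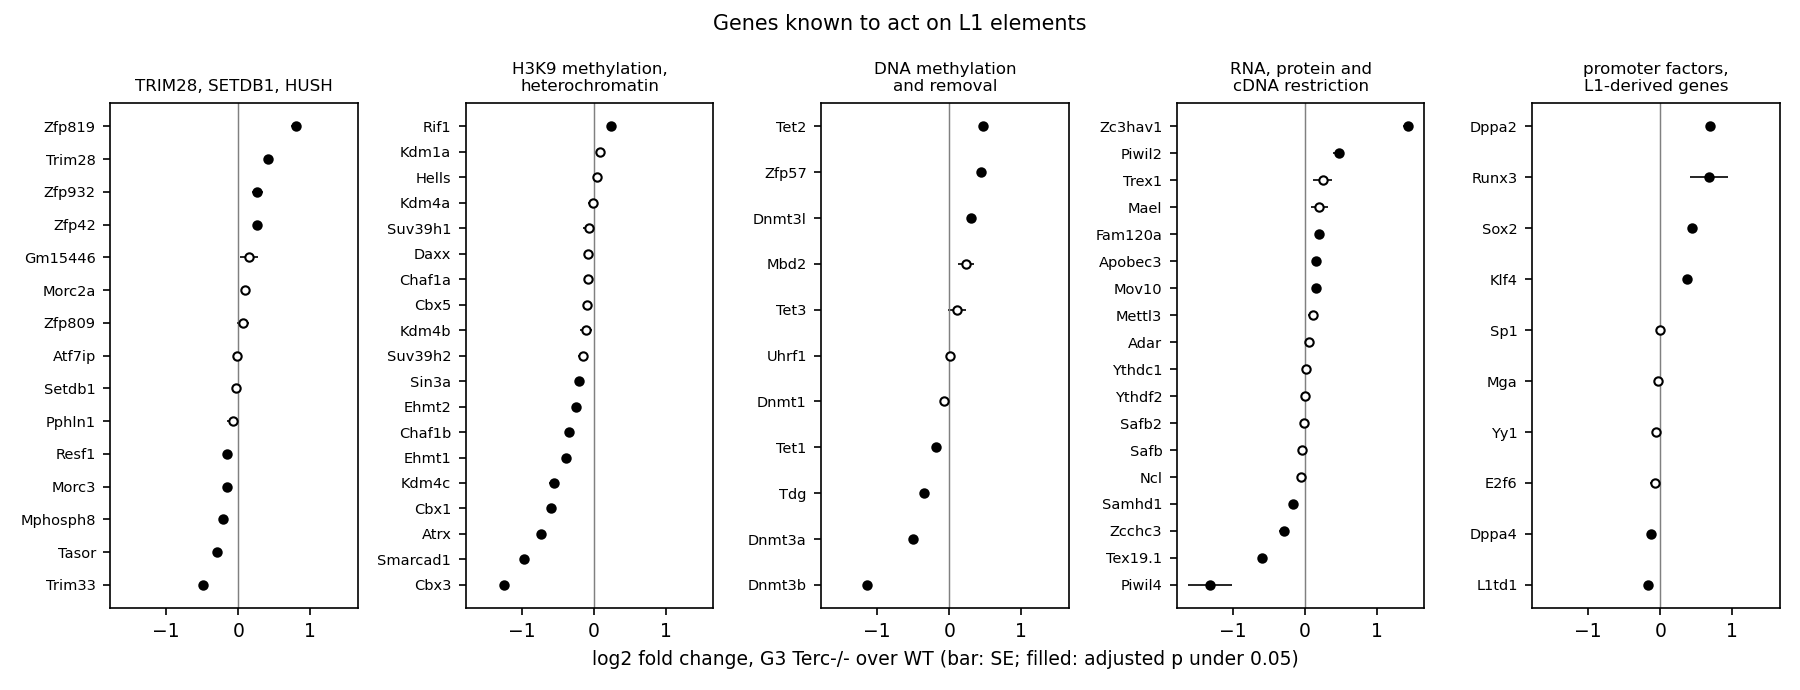
Log2 fold change of G3 Terc-/- over WT with its SE (edgeR) for the tested genes in 5 groups, with 1 gene not drawn; filled points have an adjusted p-value under 0.05. Dnmt3b, Cbx3 and Piwil4 lie below -1 and Zc3hav1 lies above 1.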

How the data were processed

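RNA-seq libraries of WT and G3 Terc-/- ESCs, 2 of each, were compared. The authors deposited raw counts per gene and per TE copy, without normalization. Per the labels the submitters' processing notes name Trim Galore, STAR, featureCounts and mm10; the study describes uniquely mapped reads for single copies, and strand and multi-mapping settings of the counter are not given in the sources used here. Of 24116 gene identifiers, 24061 were matched to a symbol, and positions are of GRCm38.

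Copies were selected and summed by repeat name. Counts of copies, repeat names and genes were each fitted over the whole table with edgeR 4.0.16 in R 4.3.3 (TMM normalization, a quasi-likelihood test and no covariate beside genotype), with Benjamini-Hochberg adjusted p-values. Repeat names and genes were filtered with filterByExpr, copies by at least 5 counts over the 4 libraries. Cutoffs were those of the study, a fold change of 1.5 for repeat names and of 2 for copies at a p-value of 0.05. For relative changes the logarithm of the L1Md_T count of each library was the offset. Expected numbers of copies at a common depth were computed from the hypergeometric distribution. p-values measure the spread between 2 libraries of 1 line per genotype.

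Named were every L1Md name, the 5 other L1 names with the most counts, the 10 copies with the most counts, the 10 higher and the 5 lower copies with the smallest p-values, 5 copies without counts in each genotype with the most counts, and up to 3 genes per group with the smallest p-values; other control genes were named after their values were seen, and 1 control gene is not reported here by name. The members and lists were chosen with earlier results of these data known. Alternatives were DESeq2 1.42.0, its size factors in edgeR, scaling by the gene counts, other filters, a replicate block and each library left out. The main fits of copies, repeat names and genes, and the relative fit of repeat names, were first tested on simulated data. The relative fit of copies and the alternatives were not. The 200 copies simulated at a fold change of 3 were drawn from those with at least 20 counts over the 4 libraries. Of these, 68% were recovered at 2-fold with p under 0.05, and 16% with an adjusted p-value under 0.05. Recovery among copies with fewer counts, 2868 of the 3768 L1Md_T copies tested, was not simulated. Of copies simulated without a change, 3.14% were called in either direction at 2-fold with p under 0.05. Figures were drawn with matplotlib 3.10.9.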

Additional observations from a re-analysis of the deposited data

How the results depend on the processing

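The increase of the summed L1Md_T counts passed its cutoff under all 12 alternatives, with log2 fold changes between 1.11 and 1.30, and L1Md_T exceeded between 820 and 869 of the other repeat names under the alternatives to the 858 reported. Without 1 library its log2 fold change was 1.11 to 1.18. The number of control genes past the test was between 33 and 44 (42 reported). Counts of single copies depended on the processing. The 1034 higher and 15 lower copies became 391 and 4 with DESeq2, 480 and 4 among copies with at least 20 counts, and 122 and 2 with adjusted p-values. Without 1 library, between 293 and 724 copies were higher and between 9 and 18 were lower; the lone library left was then assumed to vary like the other group.

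The labels do not say that libraries with the same replicate number share a batch, and 2 numbers are too few to show a pairing from the data. Deviations of libraries with the same number had a correlation of -0.05 over repeat names, 0.01 over L1Md_T copies and 0.06 over genes, whereas the feeder markers were higher in number 1 of both genotypes. With the replicate number as a block, the log2 fold change of L1Md_T was 1.15, 755 copies were higher and 7 lower, 862 repeat names changed less than L1Md_T, 44 control genes passed, and 44 copies changed less and 15 more than the L1Md_T total (54 and 25 reported). Without 1 library, 27 to 46 copies changed less and 8 to 11 more than that total.

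Of single values named, copy 18637 turned from 0.00 to -0.011 without a filter and lay between -0.051 and 0.056 without 1 library. L1M4 lay between -0.020 and 0.046 without 1 library, and Lx8 turned to 0.015 with scaling by the gene counts; none of the 3 reached its fold-change cutoff. Without the first G3 Terc-/- library Lx8 was past an unadjusted p-value of 0.05 in edgeR, at a log2 fold change of -0.06. Of 310 values of named copies under alternatives, 40 changed their call or direction, of 90 values of other L1 names 3, and of 120 values of named genes 0. Of 2868 copies with fewer than 20 counts 9 passed at 2-fold after adjustment (0.314%), and of 900 with at least 20 counts 115 did (12.8%).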
